A study of Rattus norvegicus with 18 samples.

Results

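The family of miR-15, miR-16, miR-195 and miR-497 is a set of miRNAs that share 1 seed, and it was taken here as the 10 rows of a small RNA count table named for both arms of miR-15b, miR-16, miR-195, miR-497 and miR-322. These were 10 of 753 miRNAs listed. Counts were present for 8 of the 10, and 6 passed a detection filter of more than 10 counts in at least 6 of 18 libraries, as did 373 miRNAs in all. The 6, by their names in the table, were rno-miR-16-5p, rno-miR-195-5p, rno-miR-195-3p, rno-miR-497-5p, rno-miR-15b-5p and rno-miR-15b-3p, where rno stands for the rat.

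Each library held the dorsal root ganglia (DRG) of cervical levels 6 to 8 from 1 adult Lister hooded rat, pooled from 1 side, which in the injected rats was the treated side, and there were 6 rats per group. Naive rats had no operation. The other 2 groups, bPYX+GFP and bPYX+NT3, had both corticospinal tracts cut in the medullary pyramids and were sampled 10 weeks later. Their forelimb flexor muscles on 1 side had been injected a day after injury with an AAV1 vector that drove either green fluorescent protein (GFP) or human prepro-neurotrophin-3 (NT3), a growth factor for muscle sensory neurons, from a CMV promoter. A CMV promoter is not restricted to 1 cell type, and naive rats received neither surgery nor vector, so injury and GFP vector cannot be told apart in the comparison of bPYX+GFP with naive.

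A miRNA is cut from a hairpin precursor with a 5p and a 3p arm, and 1 arm usually serves as the guide strand that finds target mRNAs through its seed. The guide strands of this family are known to repress mRNAs of cell cycle and survival genes, among them cyclins and the anti-apoptotic gene Bcl2, and they are widely expressed in adult tissue. miR-16 is abundant in blood cells, miR-195 and miR-497 are made from 1 shared transcript, and miR-15b and miR-16 come from an intron of Smc4, a gene for a subunit of the condensin complex.

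The guide strands are shown because the seed defines the family, with the seed (bases 2 to 8) in capitals, as listed by RefSeq for rat assembly GRCr8:
miR-16-5p: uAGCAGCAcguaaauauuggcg
miR-195-5p: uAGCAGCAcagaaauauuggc
miR-15b-5p: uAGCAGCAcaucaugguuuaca
miR-497-5p: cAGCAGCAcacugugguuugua
miR-322-5p: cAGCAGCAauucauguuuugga

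All 10 members were matched by name. The seed AGCAGCA stood at bases 2 to 8 in 5 of 693 mature rat sequences, which were the 5 guide strands above. miR-16-5p and miR-195-5p were identical at 19 of 21 positions compared from the 5′ end, the first 9 of them without a break. miR-16-5p and miR-497-5p were identical at 11 of 22 positions. In the bases after the seed the members therefore differed in how alike they were. Identical positions there ran from 4 of 14 for miR-16-5p and miR-497-5p to 11 of 13 for miR-16-5p and miR-195-5p.

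Beyond the guides, the hairpins of Mir195 and Mir16 are shown because the counts fell so differently on their arms, with both mature arms in capitals and the 5p arm first:
Mir195: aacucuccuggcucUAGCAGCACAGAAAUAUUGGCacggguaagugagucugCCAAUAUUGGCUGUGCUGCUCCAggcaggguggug
Mir16: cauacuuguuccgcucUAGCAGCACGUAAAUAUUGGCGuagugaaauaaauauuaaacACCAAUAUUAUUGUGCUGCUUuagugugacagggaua

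In GRCr8 the Mir195 hairpin lies at chr10:55450495-55450581 on the plus strand, 255 bases beyond the end of the Mir497 hairpin at chr10:55450171-55450239. No gene in the RefSeq table spans that pair. The Mir16 hairpin lies at chr2:155555327-155555421 on the plus strand within Smc4, as does Mir15b, and 86 bases separate miR-15b-3p from miR-16-5p. Mir322 lies at chrX:137726147-137726241 on the minus strand, within the uncharacterised gene LOC102550366. The counts were made on an older build, Rnor_5.0, whose coordinates are not given here.

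miRNA counts per library were 4.70 ± 0.66 M (SD, n = 18) and ranged from 3.88 to 6.92 M. Levels below are counts per M, or CPM, after TMM scaling, which corrects for library size and composition. Of 2 sensory neuron markers with counts, miR-182 averaged 25163 CPM and miR-96-5p 4283 CPM, while miR-183-5p from the same cluster was listed at 0. 3 libraries stood apart. Naive 1, the rat that the study left out as an outlier, and bPYX+NT3 3 had the lowest median rank correlations with the others, 0.985 and 0.986, and bPYX+GFP 3 had the largest total. The calls, arm ratios and correlations of miR-16 and miR-195 are also given without them.

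The family made up 0.252 ± 0.0423% of miRNA counts (SD, n = 18), and miR-16-5p alone was 55.4 ± 3.61% of the family. rno-miR-16-5p averaged 1393 ± 244 CPM and ranked 54 of 373 tested miRNAs by mean level. Below it came rno-miR-195-3p at 433 ± 66.9 CPM, rank 98, and rno-miR-195-5p at 429 ± 66.2 CPM, rank 99. These 2 neighbours in the order overlapped over the 18 libraries and did not differ beyond their spread, but their means depended on the group. In naive miR-195-3p averaged 481 CPM and miR-195-5p 386 CPM. Both averaged 435 CPM in bPYX+GFP, and in bPYX+NT3 miR-195-3p averaged 383 CPM and miR-195-5p 465 CPM. rno-miR-497-5p averaged 169 ± 14.1 CPM, rno-miR-15b-5p 56.8 ± 11.7 CPM and rno-miR-15b-3p 16.7 ± 4.19 CPM. Each other step in this order was larger than the spread, as the lowest library of the higher member was above the highest library of the lower one. CPM of different miRNAs also carry differences in ligation and PCR between sequences, so this is an order of counts and not of molecules.

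The remaining 4 rows were at or near the lower limit of the table. miR-16-3p had 1 to 10 counts per library and miR-497-3p had 1 to 13. Both were under the detection filter, and neither was tested. miR-322-5p and miR-322-3p were listed at 0 in all 18 libraries, and a count of 0 allows up to 3 counts, or 0.434 to 0.773 per M of the library total, which covers counting error only.

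That 0 did not stand alone in the X-linked cluster that holds Mir322. Of 10 rows for its neighbours miR-503, miR-351, miR-542, miR-450a and miR-450b, 9 were also listed at 0 and only miR-450a-5p was counted, at 501 ± 77.9 CPM. Over all miRNAs listed, 181 were at 0, and 22 of these were the opposite arm of a precursor whose other arm passed the filter. miR-126a-5p was one, listed at 0 beside miR-126a-3p at 24449 CPM. How the authors' annotation and alignment filter treated these rows was not tested, so the miR-322 rows are read as listed at 0 and not as absence.

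**Figure D1:**
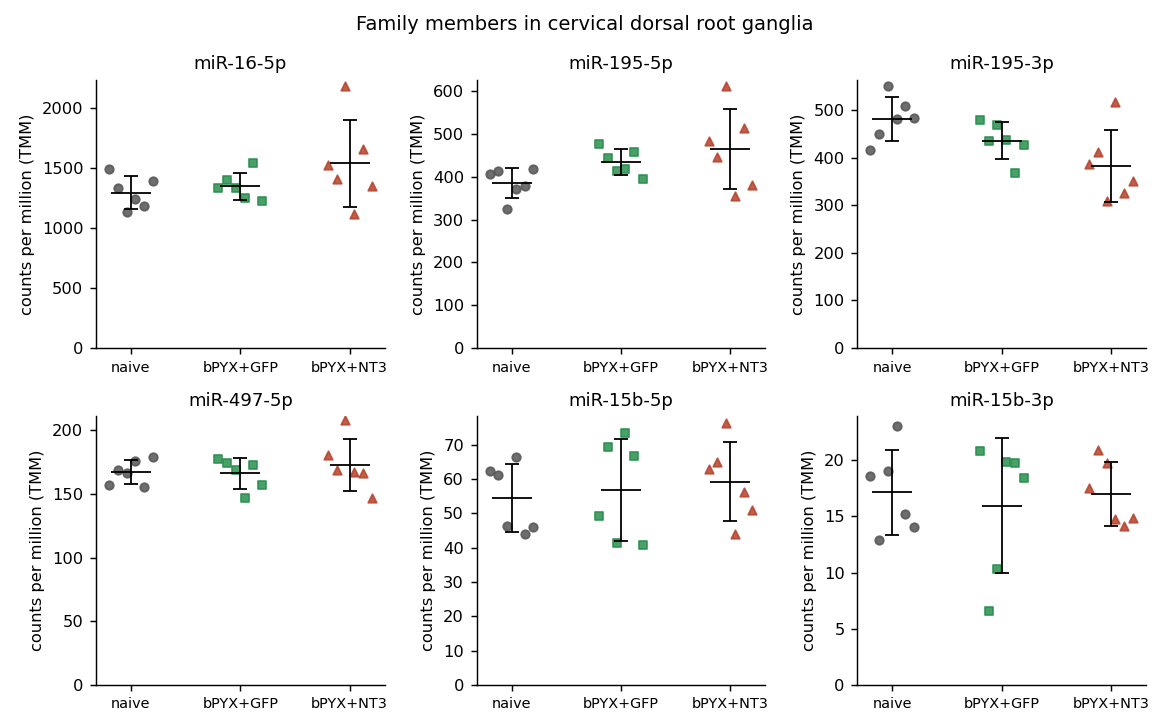
CPM of the 6 tested members (y axis, TMM-scaled, each panel from 0) in the 18 libraries by group (x axis), where points are rats, long bars group means and whiskers SD. miR-16-5p, miR-195-5p, miR-195-3p and miR-497-5p spread most widely in bPYX+NT3, where miR-16-5p ran from 1117 to 2180 CPM. The 3 groups overlapped for every member.

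The first comparison asked what differed 10 weeks after corticospinal injury with a GFP vector. In naive ganglia miR-195-5p ran from 324 to 419 CPM with a median of 394, and in bPYX+GFP from 395 to 478 with a median of 431. All 6 bPYX+GFP libraries lay above the naive mean of 386, but the 2 groups overlapped. The log2 fold change was 0.17 ± 0.08 (SE; 435 ± 30.8 against 386 ± 35.7 CPM, SD, n = 6 each), with an unadjusted p of 0.0409 and an adjusted p of 0.232 in edgeR's quasi-likelihood test with Benjamini-Hochberg adjustment over 373 miRNAs. The unadjusted p was above 0.05 in 9 of 21 alternatives, with the highest at 0.130, among them scaling by library size only, the likelihood ratio test and the fit of all 18 libraries. Without the 3 libraries that stood apart the log2 fold change was 0.21 with an unadjusted p of 0.0318. Here and below a miRNA is called where the unadjusted p was under 0.05, the criterion of the study.

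The partner arm went the other way without a call. miR-195-3p ran from 417 to 551 CPM in naive, median 482, and from 367 to 479 in bPYX+GFP, median 435. The naive mean, 481, was above all 6 values of bPYX+GFP, and the log2 fold change was -0.15 ± 0.08 (edgeR unadjusted p = 0.0913, adjusted p = 0.314). With the 3 libraries that stood apart left out, it was -0.20 with an unadjusted p of 0.0320.

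The other members showed no difference beyond the spread after injury. miR-16-5p ran from 1133 to 1491 CPM in naive, median 1286, and from 1222 to 1538 in bPYX+GFP, median 1335, a log2 fold change of 0.06 ± 0.08. miR-497-5p, the neighbour of miR-195, ran from 156 to 179 CPM in naive, median 168, and from 147 to 178 in bPYX+GFP, median 171, and its log2 fold change of -0.01 ± 0.08 turned positive under other scalings. miR-15b-5p and miR-15b-3p had log2 fold changes of 0.06 ± 0.17 and -0.11 ± 0.24. Of 6 tested members 1 was called, beside 21.2% of all tested miRNAs, and none had an adjusted p under 0.05 in edgeR or DESeq2, beside 2.41% of all. For none of the 6 were the 2 groups apart without overlap, beside 4.02% of all. The members' share was therefore no higher than the background. The median log2 fold change over the 6 was 0.02, beside 0.00 over all 373.

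The second comparison, bPYX+NT3 with bPYX+GFP, asked what NT3 changed in injured rats. No member was called (0 of 6 by edgeR's quasi-likelihood and likelihood ratio tests and by DESeq2), beside 8.58% of all tested miRNAs. At adjusted p under 0.05 the share of all was 0.0%, and so was the share without overlap between the groups. miR-16-5p ran from 1117 to 2180 CPM in bPYX+NT3, median 1465. The lowest and the highest miR-16-5p of all 18 rats were thus in this 1 group, and its log2 fold change against bPYX+GFP was 0.20 ± 0.14 (edgeR unadjusted p = 0.170, adjusted p = 0.668). Without bPYX+NT3 3, the highest, the log2 fold change was 0.05.

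The arms of miR-195 also spread in bPYX+NT3, with miR-195-5p from 355 to 612 CPM, median 464, and miR-195-3p from 308 to 516 CPM, median 368. Their log2 fold changes against bPYX+GFP were 0.11 ± 0.13 and -0.17 ± 0.11, with edgeR adjusted p of 0.832 and 0.668. The value for miR-195-5p turned negative without bPYX+NT3 3, at -0.016, and with the 3 libraries that stood apart left out, at -0.039. Without bPYX+NT3 4, which had the highest miR-195-3p of its group, the value for miR-195-3p was -0.28 with an unadjusted p of 0.00789 and an adjusted p of 0.215. miR-497-5p, miR-15b-5p and miR-15b-3p had log2 fold changes of 0.07 ± 0.10, 0.07 ± 0.18 and 0.11 ± 0.24. The median over the 6 members was 0.09, beside -0.00 over all tested miRNAs.

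The third comparison, bPYX+NT3 with naive, shares its libraries with the other 2 and is no separate evidence for either. In it injury, vector and NT3 cannot be told apart. miR-195-3p was lower in bPYX+NT3, 383 ± 75.6 against 481 ± 46.6 CPM (SD, n = 6 each), a log2 fold change of -0.33 ± 0.12 with an unadjusted p of 0.0126 and an adjusted p of 0.247 in edgeR. Below the naive mean lay 5 of 6 bPYX+NT3 rats, and the exception, bPYX+NT3 4 at 516 CPM, was above it. With that library left out the adjusted p was 0.0403, and over all alternatives it ran from 0.0403 to 0.471.

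miR-195-5p was higher in bPYX+NT3 than in naive, 465 ± 94.0 against 386 ± 35.7 CPM, a log2 fold change of 0.27 ± 0.12 (edgeR unadjusted p = 0.0410, adjusted p = 0.349), with 4 of 6 libraries above the naive mean. Without bPYX+NT3 3 the log2 fold change was 0.18 with an unadjusted p of 0.117, and without the 3 libraries that stood apart 0.19 with an unadjusted p of 0.115. For miR-195-3p the latter was -0.31 with an unadjusted p of 0.0173. miR-16-5p, 1539 ± 363 against 1294 ± 135 CPM, had a log2 fold change of 0.25 ± 0.13 (edgeR unadjusted p = 0.0759, adjusted p = 0.368), with 5 of 6 libraries above the naive mean. Without bPYX+NT3 3 it was 0.12, and without bPYX+NT3 4, the lowest, it was 0.36 with an unadjusted p of 0.0188. Without naive 1 it was 0.29 with an unadjusted p of 0.0499, and in the fit of all 18 libraries 0.25 with an unadjusted p of 0.0474, so each of these 3 settings gave it a call. With naive 1 and the other 2 libraries that stood apart left out together it was 0.17 with an unadjusted p of 0.129.

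The other members had smaller values in this comparison. miR-497-5p, from 147 to 208 CPM in bPYX+NT3 with a median of 168, had a log2 fold change of 0.05 ± 0.09. miR-15b-5p ran from 44.0 to 66.4 CPM in naive and from 44.0 to 76.5 CPM in bPYX+NT3, a log2 fold change of 0.13 ± 0.15. miR-15b-3p had a log2 fold change of -0.01 ± 0.16, and its sign changed with the scaling. In all, 2 of 6 members were called, beside 13.7% of all tested miRNAs. Of these 1 was higher, beside 7.24% of all, and 1 lower, beside 6.43%. None had an adjusted p under 0.05 in edgeR or DESeq2, beside 0.0% of all, and no member's groups were apart without overlap, beside 1.34% of all. The median over the 6 was 0.09, beside -0.01 over all.

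**Figure D2:**
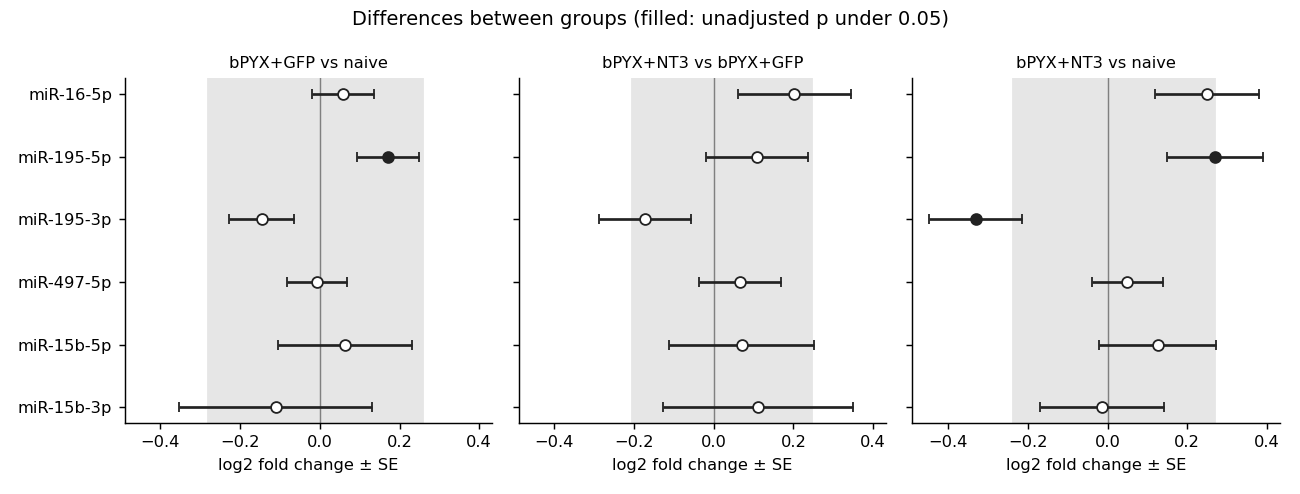
Log2 fold changes of the 6 tested members (x axis) with SE as whiskers in the 3 comparisons, filled where the unadjusted p was under 0.05, and a grey band from the 10th to the 90th percentile of all 373 tested miRNAs. In bPYX+NT3 against naive the band ran from -0.24 to 0.27, with miR-195-3p, at -0.33, below it and miR-195-5p, at 0.27, on its upper edge.

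As both arms of 1 precursor are read in the same library, their ratio does not depend on scaling between libraries. It can still move with library composition, and for miR-195 it did, as given below. Of the 4 precursors with counts, miR-16 and miR-497 were read almost wholly from the 5p arm, which held 99.9 ± 0.0322% and 99.2 ± 0.356% of the counts of both arms. For miR-15b it held 77.1 ± 5.07% (SD, n = 18). For miR-195 it held 49.7 ± 7.06%, so neither arm dominated the counts. The arms differ in sequence, so these are shares of counts and not of molecules. By group the 5p share of miR-195 was 44.5 ± 4.47% for naive, 50.0 ± 2.97% for bPYX+GFP and 54.7 ± 8.87% for bPYX+NT3 (SD, n = 6).

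The ratio of miR-195-5p to miR-195-3p counts was under 1 in all 6 naive libraries, from 0.588 to 0.978 with a median of 0.819. It ran from 0.886 to 1.25 in bPYX+GFP, median 0.978, and from 0.687 to 1.99 in bPYX+NT3, median 1.17. Among bPYX+NT3 libraries 5 of 6 had a ratio above 1 and above the highest naive ratio, and bPYX+NT3 4 was the exception at 0.687. The highest ratio, 1.99, was in bPYX+NT3 3, and the next highest, 1.58, in bPYX+NT3 5.

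The mean log2 ratio was higher by 0.32 ± 0.13 (SE) in bPYX+GFP than in naive (two-sided exact permutation p = 0.0216) and by 0.60 ± 0.24 in bPYX+NT3 than in naive (exact permutation p = 0.0325). Between the injured groups the difference was 0.28 ± 0.23 (exact permutation p = 0.260). After adjustment over the 12 ratio tests of the family these exact permutation p-values were 0.130, 0.130 and 0.623, so none passed. Without bPYX+NT3 3 the difference between bPYX+NT3 and naive was 0.45 with an exact permutation p of 0.0628. Without bPYX+NT3 4 it was 0.76, with an exact permutation p of 0.00216, and the difference between the injured groups was 0.44, with an exact permutation p of 0.0216. With the 3 libraries that stood apart left out, the differences were 0.41 in bPYX+GFP against naive, 0.51 in bPYX+NT3 against naive and 0.10 in bPYX+NT3 against bPYX+GFP (exact permutation p = 0.00794, 0.0556 and 0.659).

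Ratios with an exact permutation p under 0.05 were common among the 114 precursors with both arms tested, at 21.9% in bPYX+GFP against naive, 13.2% in bPYX+NT3 against bPYX+GFP and 21.1% in bPYX+NT3 against naive. By size of the difference miR-195 ranked 32, 27 and 4 of 114 in these comparisons. The other ratios tested were those of the miR-15b arms and of the neighbouring guide strands. miR-195-5p over miR-497-5p was higher in bPYX+GFP than in naive at an unadjusted p only, by 0.18 ± 0.07 on the log2 scale (exact permutation p = 0.0173, adjusted p = 0.130), with ratios from 1.95 to 2.60 in naive and from 2.46 to 2.85 in bPYX+GFP. Against naive, the difference in bPYX+NT3 was 0.21 ± 0.10 (exact permutation p = 0.0758), and without bPYX+NT3 4 it was 0.27 (exact permutation p = 0.00649). For miR-15b-5p over miR-15b-3p and over miR-16-5p the 6 unadjusted exact permutation p-values were between 0.411 and 0.909.

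**Figure D3:**
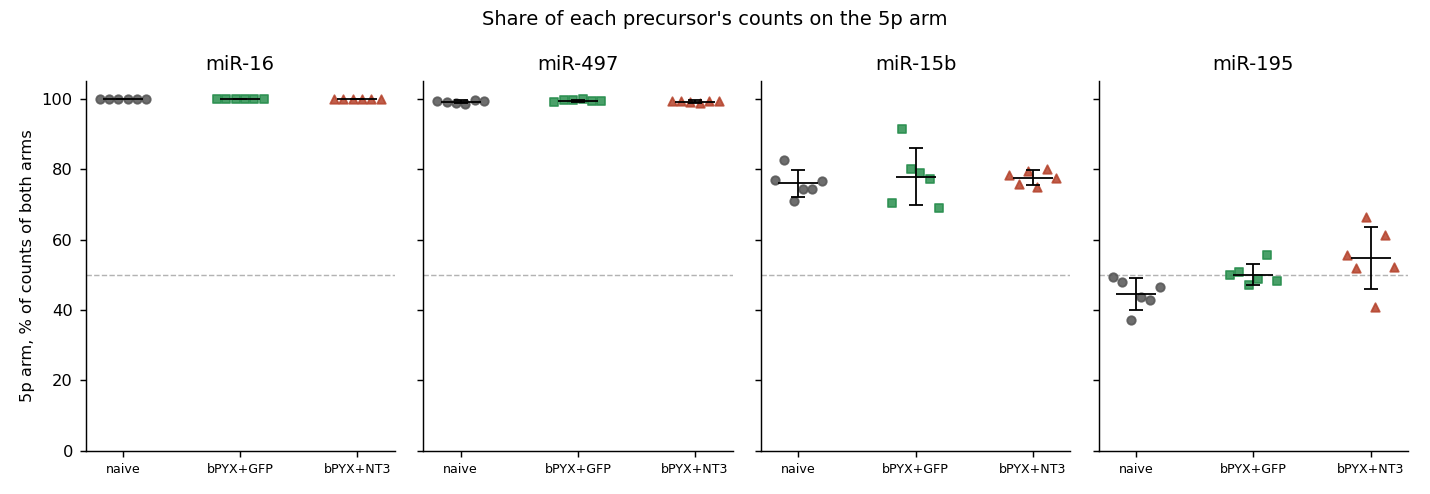
Share of counts on the 5p arm (y axis, % of the counts of both arms) for 4 precursors in the 18 libraries by group (x axis), with points for rats, long bars for means, whiskers for SD and a dashed line where both arms are equal. miR-16 and miR-497 lie close to 100.0%, whereas miR-195 straddles the line, with group means of 44.5%, 50.0% and 54.7% from left to right.

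Across the 18 rats some members varied together. The 15 pairs of tested members were compared on log2 CPM, with p-values from 100000 permutations and adjustment over the 15. miR-16-5p and miR-195-5p, which lie on different chromosomes, had a Pearson r of 0.906 (permutation p = 1e-05, the smallest possible, adjusted p = 7.5e-05) and a Spearman rho of 0.851 (permutation p = 3e-05, adjusted p = 0.00045). Without the 2 libraries farthest from the median miR-16-5p, bPYX+NT3 3 and 5, r was 0.798. Within groups r was 0.831 for naive, 0.667 for bPYX+GFP and 0.967 for bPYX+NT3 (n = 6 each).

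The 3p arm of miR-195 ran opposite to both guides. Against miR-16-5p its Pearson r was -0.846 (permutation p = 1e-05, adjusted p = 7.5e-05) and rho -0.829 (permutation p = 0.0001, adjusted p = 0.00075), with r of -0.738 without the same 2 libraries and of -0.898, -0.583 and -0.858 within naive, bPYX+GFP and bPYX+NT3. Against miR-195-5p, from its own hairpin, r was -0.758 (permutation p = 0.00021, adjusted p = 0.00105) and rho -0.670 (adjusted permutation p = 0.0154). That r was -0.559 without the 2 libraries farthest from the median miR-195-5p, naive 3 and bPYX+NT3 3, and was near 0 within bPYX+GFP, at -0.04, against -0.792 in naive and -0.766 in bPYX+NT3.

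An r this low between arms was rare among the precursors tested. Over 114 precursors the median r between the arms was 0.152, 35 were below 0, and 1 other precursor, miR-22 at -0.822, was lower than miR-195. These r are a description over 18 shared libraries. Neighbours in the genome were compared as well. The Pearson r was 0.613 (permutation p = 0.00858, adjusted p = 0.0257) for miR-195-5p and miR-497-5p and 0.576 (permutation p = 0.00765, adjusted p = 0.0257) for miR-15b-5p and miR-16-5p, and in neither pair did the Spearman adjusted permutation p, 0.0628 and 0.0587, pass. Within naive, bPYX+GFP and bPYX+NT3 the r were 0.123, 0.727 and 0.787 for miR-195-5p and miR-497-5p and 0.455, 0.418 and 0.865 for miR-15b-5p and miR-16-5p. Without the 2 libraries farthest from the median of the first member, naive 3 and bPYX+NT3 3 for the first pair and bPYX+GFP 3 and 6 for the second, r was 0.420 and 0.582. Over all 18 libraries, pairs on different chromosomes had r of like size. It was 0.612 for miR-16-5p and miR-497-5p, 0.531 for miR-15b-5p and miR-195-5p and -0.525 for miR-15b-5p and miR-195-3p (adjusted permutation p = 0.0266, 0.0466 and 0.0487). Their Spearman adjusted permutation p, 0.145, 0.0938 and 0.0816, did not pass. Without the 2 libraries farthest from the median of the first member, their r was 0.308, 0.559 and -0.566. Those libraries were bPYX+NT3 3 and 5 for miR-16-5p and bPYX+GFP 3 and 6 for miR-15b-5p. Within naive, bPYX+GFP and bPYX+NT3 the r were 0.054, 0.680 and 0.733 for miR-16-5p and miR-497-5p. For miR-15b-5p they were 0.298, 0.375 and 0.884 with miR-195-5p and -0.698, -0.469 and -0.640 with miR-195-3p. Differences between correlations were not tested.

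**Figure D4:**
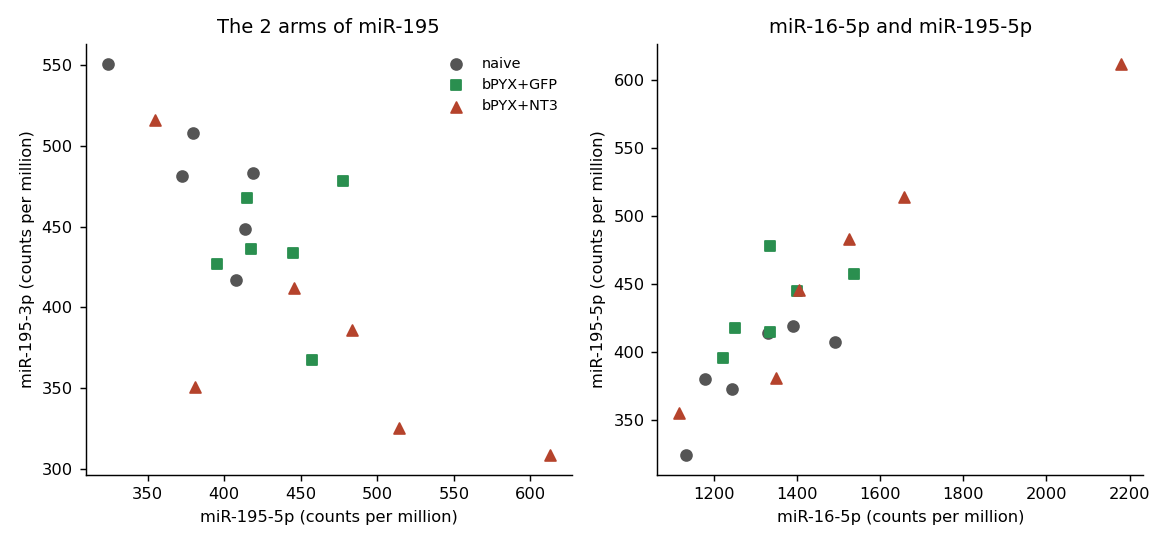
Levels in each of 18 rats in CPM on linear axes, with miR-195-3p against miR-195-5p on the left and miR-195-5p against miR-16-5p on the right, 1 point per rat and a symbol per group. On the left the points fall from upper left to lower right (r = -0.758 on the log2 scale) and on the right they rise together (r = 0.906), with bPYX+NT3 3 at the far end of both.

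Library composition moved with these levels. In each group the library with the highest TMM factor, which corrects for composition, had the highest miR-16-5p and the lowest miR-195-3p of that group. These were naive 1 at 1.02, bPYX+GFP 5 at 1.13 and bPYX+NT3 3 at 1.14. The lowest factor went with the lowest miR-16-5p and the highest miR-195-3p in 2 groups, in naive 3 at 0.931 and in bPYX+NT3 4 at 0.909. In bPYX+GFP 3 it was 0.911, the lowest of its group, while miR-16-5p, 1335 CPM, was in the middle. The ratio of miR-195-5p to miR-195-3p followed the factor at both ends in each group. This ratio was highest in naive 1, bPYX+GFP 5 and bPYX+NT3 3, at 0.978, 1.25 and 1.99. Its lowest values were in naive 3, bPYX+GFP 3 and bPYX+NT3 4, at 0.588, 0.886 and 0.687. With scaling by library size only, the correlations of miR-16-5p with miR-195-5p, miR-16-5p with miR-195-3p and the 2 arms of miR-195 were 0.948, -0.697 and -0.643. With the 3 libraries that stood apart left out they were 0.883, -0.822 and -0.664. The part of library composition in these correlations and in the arm ratio was not tested.

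The miRNAs whose levels were most like the members over the 18 libraries are given as a description. For miR-16-5p they were miR-138-5p, miR-137-3p and let-7i-3p, with r of 0.891, 0.837 and 0.817. For miR-195-5p they were miR-374-5p, miR-146a-3p and miR-138-5p, with r of 0.818, 0.783 and 0.778. Of these miR-146a-3p was low in counts, at 3.12 ± 1.49 CPM. For miR-497-5p the highest r were lower, 0.591 for miR-205, 0.576 for miR-362-5p and 0.566 for miR-93-5p.

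Since miR-16 is abundant in blood, markers of blood cells were read beside it. In whole ganglia, fewer cells of a type and less RNA per cell cannot be told apart. All 3 red cell markers and all 5 white cell markers were tested, and none was called in any of the 3 comparisons. Against naive all 3 red cell markers had log2 fold changes above 0 in both injured groups. Their medians were 0.39 in bPYX+GFP and 0.49 in bPYX+NT3. White cell markers went both ways, with medians of 0.06 and -0.08. The red cell markers summed to 125 to 566 CPM for naive, 205 to 692 for bPYX+GFP and 264 to 1098 for bPYX+NT3, and the white cell markers to 823 to 2344, 1184 to 2469 and 949 to 1600 CPM. miR-451-5p, the most abundant red cell marker, was highest in bPYX+NT3 2 at 1037 CPM, where miR-16-5p was 1404 CPM, and bPYX+NT3 3, with the highest miR-16-5p, had 348 CPM of it. bPYX+NT3 4, with the lowest miR-16-5p, had 548 CPM. Of the white cell markers, miR-223-3p was highest of all 18 libraries in bPYX+NT3 3, 282 CPM against 197 in the next. That library also had the highest miR-142-3p, miR-142-5p and white cell sum of its group, 52.4, 187 and 1600 CPM. Its miR-150-5p, 1051 CPM, was below the 1171 CPM of bPYX+NT3 1. Its miR-223-5p, 28.6 CPM, was below the 32.5 CPM of bPYX+NT3 2. Over all libraries miR-150-5p, the most abundant white cell marker, was highest in bPYX+GFP 4 and naive 4, at 1941 and 1782 CPM. In those 2 libraries miR-16-5p was 1252 and 1243 CPM. The part of blood cells in the values of miR-16-5p was not tested.

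Of the other marker lists, 1 vessel wall marker and 1 sensory neuron marker were called. Over all tested miRNAs 21.2% were called in bPYX+GFP against naive, 8.58% in bPYX+NT3 against bPYX+GFP and 13.7% in bPYX+NT3 against naive. miR-145-5p of smooth muscle and pericytes was lower in bPYX+GFP than in naive by a log2 fold change of -0.50 ± 0.14 (edgeR gave an adjusted p = 0.0742) and higher in bPYX+NT3 than in bPYX+GFP by 0.40 ± 0.16 (adjusted p = 0.442). miR-182 was higher than in naive by 0.20 ± 0.08 in bPYX+GFP and 0.19 ± 0.09 in bPYX+NT3 (adjusted p of 0.173 and 0.349 in edgeR). miR-143-3p, miR-126a-3p, miR-206-3p and miR-96-5p were not called, and miR-1-3p and miR-133a-3p of skeletal muscle were listed at 0. The part of cell content in the values of miR-195 was not tested.

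Relatives of the seed were read beside the family as well. They are shown because they hold all or most of its letters, in capitals at bases 2 to 8 of miR-503-5p and, shifted by 1 base, at bases 1 to 7 of the other:
miR-503-5p: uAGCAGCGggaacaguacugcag
miR-103-3p: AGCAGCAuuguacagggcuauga

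miR-503-5p, which shares bases 2 to 7 of the seed, was listed at 0. miR-103-3p was lower in bPYX+GFP than in naive, 109 ± 22.9 against 139 ± 21.7 CPM (SD, n = 6 each), a log2 fold change of -0.35 ± 0.14 with an unadjusted p of 0.0266 and an adjusted p of 0.195 in edgeR. miR-107-3p, which carries the same shifted seed, had a log2 fold change of -0.30 ± 0.16 (edgeR unadjusted p = 0.0715, adjusted p = 0.284). Both sequences are nearly identical, so the split of reads between them is uncertain. Neither was called in the other 2 comparisons. Their values in bPYX+GFP thus had the opposite sign to that of miR-195-5p, and the difference between them was not tested.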

How the data were processed

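Small RNA was sequenced from cervical DRG of 18 rats, 6 in each of 3 groups taken from the labels. The deposited values are raw counts per mature miRNA. The authors trimmed adapters, aligned reads to Rnor 5.0 with Bowtie2 and counted them with HTSeq-count. Versions of these tools are not given in the sources used here, while bcl2fastq was 1.8.4. Reads counted for no miRNA did not enter totals or tests. They were 61.8% to 67.6% of all entries, and 28.0% to 35.1% had too low an alignment quality, so miRNAs with near-identical genomic copies may be undercounted, and whether family members were affected was not tested. No molecular identifiers are stated.

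Each comparison was fitted on its 12 libraries with edgeR 4.0.16 in R 4.3.3 (TMM, quasi-likelihood F test) after the filter of more than 10 counts in at least 6 libraries, with Benjamini-Hochberg adjustment over 373 miRNAs. Each SE is the log2 fold change divided by the root of F. Ratios of raw counts were compared by exact permutation over 924 splits. Correlations used Python 3.11.15 with numpy 2.4.6 and scipy 1.17.1. Scripts were tested on simulated data. The 2 most alike libraries of any group still differed by a chi-square of 37.3 per degree of freedom, so none was a copy. Alternatives were other scalings, filters, tests (DESeq2 1.42.0 among them), a fit of all groups, a replicate block and leaving out each library. Leaving out naive 1, bPYX+GFP 3 and bPYX+NT3 3 together and rescaling the correlations were added after seeing the data. The members, marker lists and tests were chosen with earlier results of these data known. All members and listed miRNAs were named, with the 3 miRNAs most like each of miR-16-5p, miR-195-5p and miR-497-5p, and miR-22 was named after its value was seen. Sequences and positions are from RefSeq tables of GRCr8, which matched 688 of 753 names. No genome was used.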

Additional observations from a re-analysis of the deposited data

Results flagged for a closer look

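The ratio of miR-15b-5p to miR-15b-3p counts in bPYX+GFP 2 was 10.6, far from the next highest of that group at 4.00 and from all libraries of the other groups. It came from 30 counts of miR-15b-3p, the lowest of the 18 libraries, which were 6.53 CPM. It was 1 of 36 groups of 6 libraries examined in this way, where chance flags about 1 in 20.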

How the results depend on the processing

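miR-195-3p in bPYX+NT3 against naive kept its call under all 21 alternatives, with unadjusted edgeR or DESeq2 p from 0.00034 to 0.0327, and the other calls did not. In bPYX+GFP against naive the count of members called went from 1 to 0 with library size only, with edgeR's likelihood ratio test and in the fit of all 18 libraries, to 2 when naive 1, bPYX+GFP 3 and bPYX+NT3 3 were left out together, and ran from 0 to 2 when 1 library was left out (2 without naive 1 and 0 without naive 3, 4 or 5 or bPYX+GFP 1, 2 or 5). In bPYX+NT3 against bPYX+GFP it ran from 0 to 1 (1 without bPYX+NT3 4). In bPYX+NT3 against naive it went from 2 to 1 with the replicate block and without the 3 libraries, to 3 in the fit of all 18, and ran from 1 to 3 when 1 library was left out (1 without naive 3, 4 or 5 or bPYX+NT3 1, 3 or 5, and 3 without naive 1 or bPYX+NT3 4). The count at adjusted p under 0.05 was 0 under these alternatives, except for 1 without bPYX+NT3 4 in bPYX+NT3 against naive. The cause of these moves was not tested.

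The log2 ratio of the miR-195 arms kept its direction. It ran from 0.23 to 0.38 in bPYX+GFP against naive when 1 library was left out, with p above 0.05 without bPYX+GFP 5, from 0.13 to 0.44 in bPYX+NT3 against bPYX+GFP, with p under 0.05 without bPYX+NT3 4 and with 0.10 without the 3 libraries, and from 0.45 to 0.76 in bPYX+NT3 against naive, with p above 0.05 without naive 3, 4 or 5 or bPYX+NT3 1, 3 or 5. Without the 3 libraries the last was 0.51 with an exact permutation p of 0.0556.

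Values near 0 changed sign, all with p above 0.05. In bPYX+GFP against naive these were miR-497-5p (0.0058 with median-of-ratios size factors, 0.0061 with DESeq2, 0.020 with library size only, and -0.036 to 0.026 when 1 library was left out), miR-15b-5p (-0.023 to 0.15), miR-15b-3p (-0.20 to 0.049, and 0.032 without the 3 libraries) and miR-16-5p (-0.0030 to 0.10). In bPYX+NT3 against bPYX+GFP they were miR-15b-5p (-0.047 to 0.15, and -0.13 without the 3 libraries), miR-15b-3p (-0.040 to 0.19, and -0.088), miR-195-5p (-0.016 to 0.17, and -0.039) and miR-497-5p (-0.023 to 0.12, and -0.028). In bPYX+NT3 against naive they were miR-15b-3p (0.00084 with median-of-ratios size factors, 0.00075 with no filter, 0.059 with library size only, and -0.083 to 0.090) and miR-497-5p (-0.011 to 0.092, and -0.028 without the 3 libraries). Of the log2 ratios, miR-15b-5p over miR-15b-3p ran from -0.067 to 0.39 in bPYX+GFP against naive and from -0.26 to 0.19 in bPYX+NT3 against bPYX+GFP when 1 library was left out. miR-195-5p over miR-497-5p ran from -0.019 to 0.090 in bPYX+NT3 against bPYX+GFP (-0.023 without the 3 libraries). miR-15b-5p over miR-16-5p ran from -0.12 to 0.064 in bPYX+GFP against naive (0.065 without the 3 libraries) and from -0.17 to 0.019 in bPYX+NT3 against bPYX+GFP.

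Replicate numbers are shared by the groups but do not pair the rats. Over 18 same-numbered pairs the correlation of deviations from the group means ran from -0.384 to 0.371, was over 0.1 in 6, and 6 libraries correlated best with their own number. With the replicate block, miR-195-5p in bPYX+NT3 against naive had a log2 fold change of 0.25 with an unadjusted edgeR p of 0.0861, and no other call of a member changed.

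Over all miRNAs, the count called in bPYX+NT3 against bPYX+GFP went from 32 to 54 with no filter and without bPYX+NT3 4, and in bPYX+NT3 against naive from 51 to 32 without bPYX+NT3 3. miR-15b-3p was not tested under the filter of more than 100 counts, and at 30 to 115 counts per library it is the least precise tested member. miR-16-3p and miR-497-3p were under the detection filter, and no comparison of them is given.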
